A study of Bos taurus and Felis catus with 14 samples.

Results

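The mir-183 cluster (mir-183, mir-96 and mir-182), mir-204, mir-211 and mir-184 were followed through the bovine and feline call sets as precursors, mature products and neighbours. Members were all precursors whose name holds one of these 6 families with the number matched whole, names that begin with as- (antisense) left out. The rule found 6 of the 810 bovine loci and 6 of the 495 feline loci, 12 of 1305 in all, 1 locus for each family in each species. All 6 bovine loci carried a plain miRBase name. In the cat 5 had a plain name. The name of the mir-211 locus, the single one of that family there, carried the added mark used for newly predicted members of known families.

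Bovine loci were called from 10 libraries of small RNA from untreated Angus steers, sampled after slaughter. There was 1 library each of retina, optic nerve, iris, dental pulp, brain stem, submandibular lymph node, bone marrow, oral papillae, penis and corium of the hoof, and 1 steer gave all of these but the brain stem and the corium, which came from 1 other steer each. Feline loci were called from 4 libraries of untreated, neutered male domestic short hair cats of older age, 2 of skin and 2 of skeletal muscle, with 1 cat giving both tissues, so no eye tissue entered the feline set. All libraries of a species were pooled before calling, so each species had 1 call set and no replicate, and no test was made. Each set lists the start, end, strand and name of a precursor and of its 5p and 3p products, named after the arm of the hairpin, with no read number and a blank score. Levels per library, which the study tabulated in a supplement held here only in part, were not analysed here. Species, tissues and depth cannot be told apart from the call sets in any difference given here. Families known as markers of the tissues were looked up by name. Of the muscle families mir-1, mir-133 and mir-206 all 3 had loci in both species, with skeletal muscle sampled in the cat alone. Of 4 families of the nervous system, 4 had a bovine locus and 3 a feline locus, the cat having none named mir-124. Of 5 epithelial families 4 were called in each species, with no locus named mir-203. Of 3 blood families, 2 were called in the cow (no mir-451) and 3 in the cat.

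MicroRNA precursors are hairpins cut from a longer transcript by Drosha and then opened by Dicer, which leaves a duplex of a 5p and a 3p product. The start of a mature product fixes its seed, the stretch of bases that pairs with target messages, so a shift of the 5′ end changes what the microRNA can bind. The mir-183 cluster is made as 1 transcript in sensory cells such as photoreceptors and hair cells, and changes in the seed of miR-96 cause hearing loss in humans and mice. The microRNAs miR-204 and miR-211 are close paralogs whose 5p products share a seed. The first is known from retinal pigment epithelium and lens, and the other from melanocytes and pigment epithelium. miR-184, which acts from its 3p arm, is a microRNA of cornea and lens.

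The mir-183 cluster had the same order and strand in both species, and the bovine gaps were 0.93 and 1.08 times the feline ones. In the direction of transcription mir-183 came first, mir-96 next and mir-182 last, with all loci on the minus strand. The bovine loci lay on chromosome 4, with bta-mir-183 from 94411432 to 94411495, bta-mir-96 from 94411210 to 94411272 and bta-mir-182 from 94406720 to 94406787. The feline loci lay on NC_018724.2, with fca-mir-183 from 145074591 to 145074654, fca-mir-96 from 145074355 to 145074419 and fca-mir-182 from 145070203 to 145070268. Positions are those of the deposited sets. Their build is not named in the sources used here. No other locus of either strand was called between or within 10 kb of them. Grouping loci whose spans lay at most 10 kb apart therefore gave a cluster of 3 in each species, so 3 of the 6 members were clustered, where 29.0% of all bovine loci and 33.3% of all feline loci were. With gaps of at most 1 kb, mir-183 and mir-96 formed a pair and mir-182 stood alone in both species.

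The gap between mir-183 and mir-96 was 159 nt in the cow and 171 nt in the cat. The gap between mir-96 and mir-182 was 4422 nt in the cow and 4086 nt in the cat. The first gap was thus 12 nt longer in the cat and the other was 336 nt longer in the cow, and the whole cluster spanned 4776 nt in the cow and 4452 nt in the cat. The 3 precursors summed to 195 nt in each species, so the difference in whole span lay between the hairpins. Measured from 5p start to 5p start, the distances were 223 and 4486 nt in the cow against 235 and 4151 nt in the cat. These starts lay at the 5′ edge of the span, or 1 nt inside it for bta-mir-182, so this measure is not independent of the spans.

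**Figure D1:**
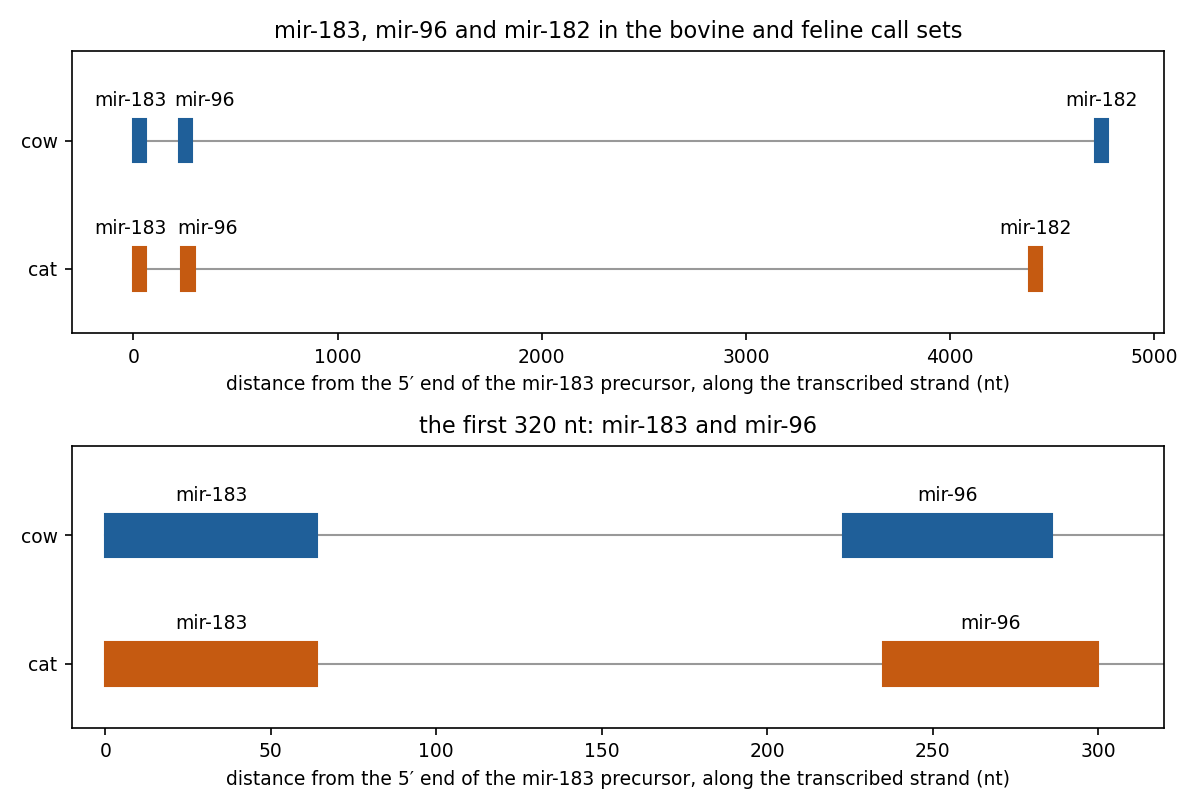
Map of mir-183, mir-96 and mir-182 in cow (blue) and cat (orange), to scale, as distance in nt from the 5′ end of the mir-183 precursor along the transcribed strand. Boxes are precursor spans, and the lower panel enlarges mir-183 and mir-96, where the gap was 159 nt in the cow and 171 nt in the cat.

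These gaps were set beside those of every pair of loci that were next to each other, at most 10 kb apart and alike in name in both sets. There were 26 such pairs, and the ratio of the bovine to the feline gap ran from 0.847 to 1.5 with a median of 0.983. The ratio was 0.93 for mir-183 and mir-96, with 4 pairs lower, and 1.08 for mir-96 and mir-182, with 3 pairs higher. Both lay with the 21 pairs between 0.9 and 1.1. The gap of mir-96 to mir-182 was 1 of 3 that reached 4 kb in the cow. Pairs of 1 cluster are not independent, and these ratios describe the lists only.

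**Figure D2:**
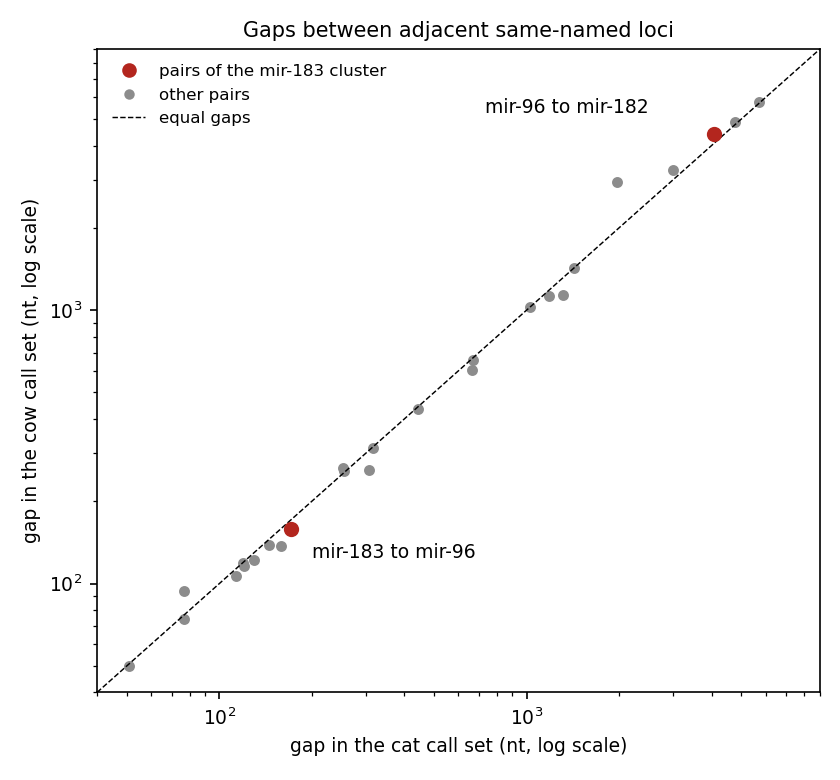
Gap between adjacent same-named loci in the cow (vertical axis) against the cat (horizontal axis), both in nt on log scales, for 26 pairs. The dashed line marks equal gaps, and the mir-183 cluster gives the red points, 1 just below the line (159 against 171 nt) and 1 just above it (4422 against 4086 nt).

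The wider surroundings of the cluster were also alike. The nearest loci that have the same name in both sets were mir-129-1 on the mir-182 side and mir-335 on the mir-183 side, in both species. The locus mir-129-1 was 1185758 nt from mir-182 in the cow and 1124040 nt in the cat. The locus mir-335 was 659509 nt from mir-183 in the cow and 634924 nt in the cat. Farther out, mir-592 lay 2.28 and 2.18 Mb from mir-182, and mir-29a lay 0.991 and 0.933 Mb from mir-183, in cow and cat. The strands of these flanking loci were the same in both species, mir-592 and mir-29a on the minus strand and mir-129-1 and mir-335 on the plus strand. Much farther out, mir-671 lay on the plus strand in both, 20.2 Mb from mir-183 in the cow and 17.5 Mb in the cat. The distances from mir-592, mir-29a and mir-671 were picked after their values were seen. All 10 loci of bovine chromosome 4 that shared a name with a feline locus, those of the cluster itself included, had it on NC_018724.2. On the mir-182 side the nearest loci had no shared name, bta-mir-2422 at 787090 nt in the cow and fca-Novel77 at 749671 nt in the cat. Both were on the plus strand, and whether they are counterparts was not tested. A locus antisense to bta-mir-335 lay at 659507 nt on the mir-183 side in the cow alone. RefSeq's bovine genes, on the assembly ARS-UCD2.0, were looked up for names and neighbours alone. All 6 members matched by symbol, but 0 of 6 call set spans overlapped the RefSeq span of the same symbol, so positions were not carried over. MIR96 was the single annotated gene between MIR182 and MIR183, none of the 3 lay inside a protein-coding gene, and NRF1 was the next protein-coding gene on one side.

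The hairpins of the cluster differed between species by a few nt at most. The mir-183 precursor was 64 nt in both, mir-96 was 63 nt in the cow and 65 nt in the cat, and mir-182 was 68 nt in the cow and 66 nt in the cat. The bovine mir-182 span was longer than 515 of the 810 bovine precursors, and the other bovine spans of the cluster lay below the median of 66 nt. In the cat, where the median was 65 nt, all 3 lay between 64 and 66 nt.

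The mir-183 products started at the same bases of the span in both species. The 5p product began at the first base of the span and the 3p product at base 41, so their starts were 40 nt apart in cow and cat. The 3p product was 21 nt in both, while the 5p product was 22 nt in the cow (94411474 to 94411495) and 23 nt in the cat (145074632 to 145074654). Counted from the 3p start, the added base fell at the 3′ end of the 5p product, which was not checked by sequence. For mir-96 the 5p product, the one whose seed changes cause hearing loss, also began at the first base of the span in both species. Per the methods of the study, spans can be drawn from the most abundant product itself. The shared first base therefore does not show that the 5′ ends match. The 5p product of mir-96 was 21 nt in the cow (94411252 to 94411272) and 22 nt in the cat (145074398 to 145074419). With no feline 3p product listed and no sequence analysed, the end that holds the added base could not be told. The 3p product of bta-mir-96 (94411211 to 94411230, 20 nt) had no listed counterpart in the cat.

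For mir-182 the 5p product was 24 nt in both species, 94406763 to 94406786 in the cow and 145070245 to 145070268 in the cat. The 3p product was the most different of the products found in both sets. It was 20 nt in the cow (94406723 to 94406742) and 18 nt in the cat (145070209 to 145070226), at bases 46 to 65 of the bovine span and 43 to 60 of the feline span. Counted from the 5p start it began 44 nt away in the cow and 42 nt away in the cat. The distance from 5p start to 3p start ran from 21 to 95 nt over the 587 bovine loci with both products, with a median of 38 nt, and 524 of them were shorter than bta-mir-182. In the cat 261 of 325 such loci were shorter than fca-mir-182. Of all products, 97.1% were 20 to 24 nt long in each species, and the feline 3p product of mir-182 was the single member product outside that range.

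**Figure D3:**
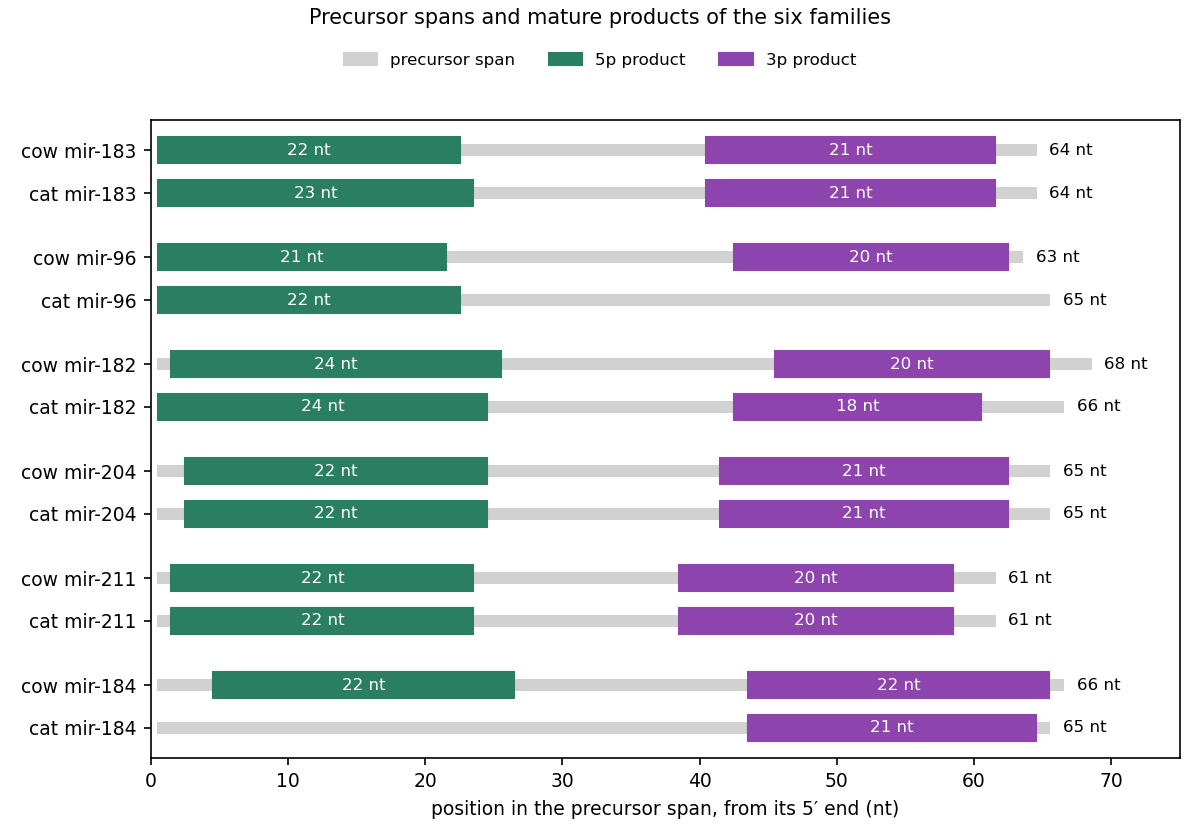
Precursor span (grey) with its 5p product (green) and 3p product (purple) for each family in cow and cat, by position in nt from the 5′ end of the span. Numbers give lengths in nt. The mir-204 and mir-211 rows are identical between species, while cat mir-96 lacks a 3p product and cat mir-184 lacks a 5p product.

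The paralogs mir-204 and mir-211 had the same layout in cow and cat, base for base. The bovine mir-204 locus lay on chromosome 8 from 47259550 to 47259614 and the feline one on NC_018735.2 from 13182248 to 13182312, both on the minus strand and both 65 nt long. In both, the 22 nt 5p product took bases 3 to 24 and the 21 nt 3p product took bases 42 to 62, which left 17 nt between them. The bovine mir-211 locus lay on chromosome 21 from 28046434 to 28046494 and the feline one on NC_018728.2 from 21667138 to 21667198, both on the minus strand and both 61 nt long. The 22 nt 5p product took bases 2 to 23 and the 20 nt 3p product bases 39 to 58 in both species, with 15 nt between them. The feline locus with the mark for a newly predicted member thus had the layout of the annotated bovine mir-211. The paralogs differed from each other where the species did not, since the starts of the 5p and 3p products were 39 nt apart for mir-204 and 37 nt apart for mir-211 in each species. The 61 nt span of mir-211 was the shortest of the members, with 106 of 810 bovine and 76 of 495 feline precursors shorter still. In the RefSeq table MIR204 lay inside TRPM3 and MIR211 inside TRPM1, a pair of genes of 1 family of cation channels.

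For mir-184 the product on the 3p arm, the one the microRNA is known for, was called in both species and the 5p product in the cow alone. The bovine locus lay on chromosome 21 from 25913779 to 25913844 and the feline locus on NC_018728.2 from 1088997 to 1089061, both on the plus strand, the single member on that strand. The spans were 66 nt and 65 nt. The 3p product began at base 44 in both, and was 22 nt in the cow (25913822 to 25913843) and 21 nt in the cat (1089040 to 1089060). The bovine 5p product ran from 25913783 to 25913804, at bases 5 to 26, and was 22 nt long. In the RefSeq table MIR184 lay outside any protein-coding gene, between RASGRF1 and ANKRD34C.

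All 6 bovine members had products from both arms, where 72.5% of all bovine loci did, and 4 of 6 feline members did, where 65.7% of all feline loci did. Counting products of 20 to 24 nt alone left 3 of 6 in the cat, since the 3p product of fca-mir-182 dropped out. The share of all feline loci under that limit is not given here. The 65.7% counts products of any length and cannot be set beside the 3 of 6. The feline arm that was kept was the one the bovine set lists first, 5p for mir-96 and 3p for mir-184. The sources used here do not say what sets the order of the products in the files, and neither arm nor position gave it over the whole sets. The 5p product came first at 50.8% of the bovine and 56.0% of the feline loci with both arms, and the product at the higher genomic position came first at 49.7% and 54.8%. In the members with both arms it was the product at the higher position each time. The 4 families with both arms in both species, mir-183, mir-182, mir-204 and mir-211, had the 5p arm first in cow and cat. For mir-96 and mir-184 the cat lists a single arm, so there is no order to compare. Over all loci with the same name in both sets and both arms in both, the same arm came first at 89.9% of 139. The mir-211 locus is not among these, since its feline name differs. Of 161 same-named loci with both arms in the cow, 22 (13.7%) had 1 arm in the cat, and at 22 of these 22 (100%) that arm was the one listed first in the cow. The reverse case, both arms in the cat and 1 in the cow, was found at 2 of 164 same-named loci.

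The differences of the members between species were set beside those of all same-named loci. Most members belong to that group, so lying within its range was fixed in advance for them. The distance from 5p start to 3p start was equal in cow and cat for mir-183, mir-204 and mir-211, which is 3 of the 4 families with both arms in both species, and 2 nt longer in the cow for mir-182. Over the 139 same-named loci that could be compared, 79.1% had an equal distance, the differences (cow minus cat) ran from -3 to 4 nt, and 13 were at least 2 nt in size. Precursor length was equal for 3 of 6 families and within 2 nt for all 6. Over 164 same-named loci 36.6% had equal lengths, 59.1% were within 2 nt, and 28 differed by more than 10 nt, with a range of -45 to 41 nt. The length of the 5p product was equal for mir-182, mir-204 and mir-211 of 5 families with a 5p product in both sets (76.3% of 152 same-named loci), and that of the 3p product for mir-183, mir-204 and mir-211 of 5 (76.2% of 151). The group of same-named loci held 5 of the 6 families, all but mir-211, whose feline name differs. Names in the cat were given by likeness to known microRNAs, so same-named loci were chosen for that likeness.

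**Figure D4:**
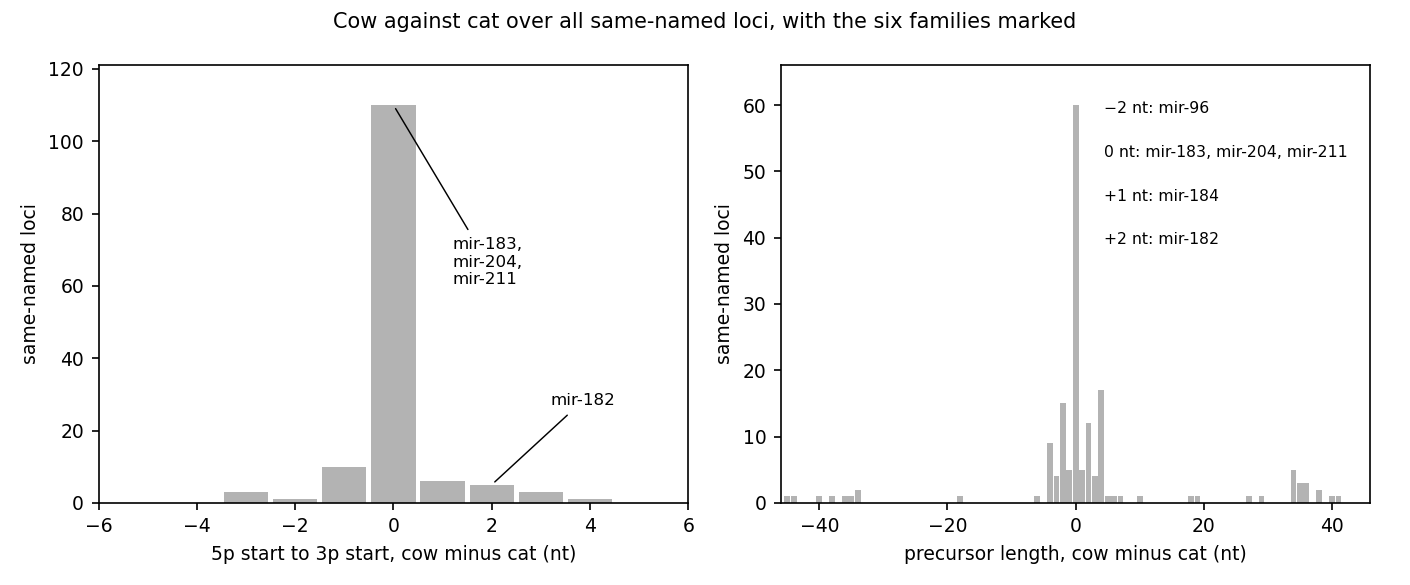
Difference between cow and cat (cow minus cat, in nt, horizontal axes) over same-named loci, whose number is on the vertical axes. The left panel gives the distance from 5p start to 3p start over 139 loci and the right panel precursor length over 164 loci, with the families of interest named at their differences, mir-211 being added to the panels by family.

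The loci outside the cluster stood alone in both sets, with gaps of 318091 nt or more to their nearest neighbours. The nearest locus to bta-mir-204 was bta-mir-2285i at 318091 nt, a member of a ruminant family, and to fca-mir-204 it was fca-Novel147 at 2823165 nt. For mir-184 it was bta-mir-2285-Novel39 at 1028299 nt in the cow and fca-Novel183 at 381697 nt in the cat. For mir-211 it was bta-Novel152 at 1083680 nt in the cow and fca-Novel178 at 11807711 nt in the cat. None of these neighbours had the same name in both species, and whether any are counterparts was not tested. Of the 7 loci on bovine chromosome 8 that had a same-named feline locus, 6 had it on NC_018735.2, the sequence of fca-mir-204, and for chromosome 21 this was so for 19 of 20 on NC_018728.2. These counts include mir-204 and mir-184 themselves.

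The loci mir-184 and mir-211 shared a chromosome in both species, with mir-184 on the plus strand at the lower position and mir-211 on the minus strand at the higher one, but lay 2132589 nt apart in the cow and 20578076 nt apart in the cat. In the cow 1 locus was called between them, bta-Novel152. In the cat 3 were, among them fca-Novel182 and fca-mir-9-Novel3. A mir-9 locus lay on the same chromosome as mir-184 in both species, on opposite sides and farther away than the nearest called loci. In the cow bta-mir-9-1 was at a lower position than mir-184, on the plus strand and 4663599 nt away. In the cat fca-mir-9-Novel3 was at a higher position, on the minus strand and 5437980 nt away. The mir-9 loci were picked after their values were seen, and whether they are counterparts of each other was not tested. The feline mir-184 locus was the second on its sequence by position, and the bovine one the sixth.

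**Figure D5:**
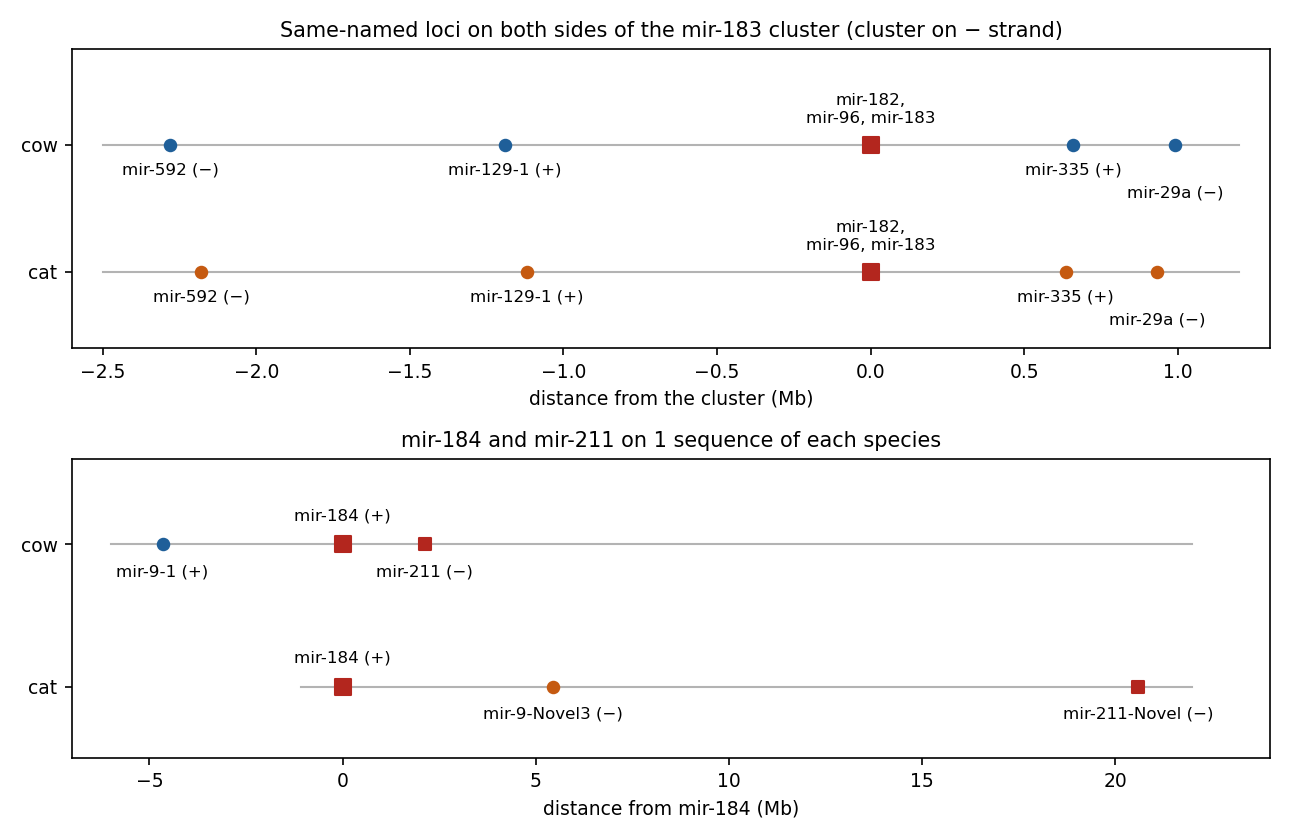
Chosen loci around the mir-183 cluster (upper panel) and around mir-184 (lower panel) in cow and cat, with distance in Mb on the horizontal axes and the strand in brackets. Squares are members and circles other loci, and not every called locus is drawn. The loci drawn around the cluster line up between species, with mir-671 farther out and not drawn. The locus mir-211 lay 2.13 Mb from mir-184 in the cow and 20.6 Mb in the cat.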

How the data were processed

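Small RNA was sequenced by the authors from 10 bovine tissues and from feline skin and muscle. Per the labels and the methods of the study, reads were trimmed with cutadapt 1.15 and aligned with Bowtie 1.2.11, with reads that matched more than 10 genome positions left out, and miRWoods called precursors and products once per species from its pooled libraries. Per the deposited files, the values are genomic starts and ends counted from 1. Loci that share sequence can share reads under this counting.

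Members and lists were chosen with earlier results of these data known. Gaps were measured between spans on either strand, and clusters joined loci at most 10 kb apart. Same-named loci are those whose name after the species prefix occurs once in each set, with marks for new members left out. Named loci are the members, their nearest loci and the tissue families, others being said to be picked later. Computation used Python 3.11.15 and matplotlib 3.10.9 and was tested on simulated lists. Sequences of the loci were not analysed here.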

Additional observations from a re-analysis of the deposited data

How the results depend on the processing

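No paired analysis was possible because the call sets analysed here hold no values per library, and for the same reason no library was left out. The study's supplementary counts per library were not used here. Of 35 values computed under another choice, 33 stayed within 1.5 times the value given, 22 of them identical, and none turned its direction. The exceptions were the difference for mir-182 in length (cow minus cat), which was 4 nt from the first to the last product base instead of 2 nt over the span, and that for mir-183, which was 1 nt from 5p end to 3p start instead of 0 from start to start. At gaps of 5 and 50 kb, or on the same strand alone, the cluster held 3 loci in each species, and at 1 kb it held 2. The number of families with an equal start distance also fell from 3 to 2 when counted from 5p end to 3p start. A fall from 3 to 2 is just at the limit of 1.5 times and was counted as within it. Some choices could not change a value, since all loci of the cluster were on the minus strand and no member had an antisense name. Over the 111 same-named loci without a copy number the share of equal start distances was 79.3%. No antisense name of a member family occurred, so including such names left 6 loci in each species. What depth limits could not be measured, and an arm or locus that is not listed is not shown to be absent.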

Other observations

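The locus named mir-7-1 sat with different members in the species. In the cow it lay on chromosome 21 from 19989084 to 19989145 on the plus strand, 5924633 nt from bta-mir-184. In the cat it lay on NC_018735.2 from 25044906 to 25045011 on the minus strand, 11862593 nt from fca-mir-204. It was the one same-named locus of bovine chromosome 21 that was not on NC_018728.2. Copy numbers in names were given separately for each species, and whether these are the same copy was not tested.

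Around mir-204 some loci of like families lay on the same side in both species and mir-491 did not. It was at a lower position than mir-204 in the cow, 23597794 nt away on the minus strand, and at a higher one in the cat, 32013387 nt away on the plus strand. A mir-101 locus on the minus strand lay at lower positions, bta-mir-101-2 at 7318632 nt and fca-mir-101b at 6448488 nt. The mir-23b, mir-27b and mir-24-1 group on the plus strand lay at higher positions, with mir-23b at 35749978 nt in the cow and 15914579 nt in the cat. Besides mir-96 and mir-184, the 22 same-named loci with both arms in the cow and 1 in the cat included mir-155, mir-192, mir-215, mir-375 and mir-429, with the 5p arm kept at 12 loci and the 3p arm at 10. These loci were picked after their values were seen.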
